A study of Rattus norvegicus with 12 samples.

Results

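FaO rat hepatoma cells treated with α-lipoic acid (α-LA) for 18, 24 and 30 h were compared with control FaO cells on 6 of the 12 Illumina RatRef-12 arrays of the series, 3 arrays in each group. The members of the comparison were chosen by array title, and every probe with a signal of 150 or more on at least 3 of the 12 arrays was tested, which left 9193 of 22523 probes. The other arrays held α-LA at 6 h (1 array), α-LA at 42, 48 and 72 h (3 arrays, called late here) and thapsigargin, an inhibitor of the calcium pump of the endoplasmic reticulum (2 arrays). All cells were FaO, a line derived from a rat liver tumour, with no genetic change stated between groups, and treatment took place in 2% fetal calf serum, a reduced level against the 10% used for growth. The α-LA arrays received 500 µM α-LA daily, 1 array per time, and each RNA sample pooled 3 wells. The control arrays carried no agent in their titles, and neither their harvest time nor a vehicle was given. No source said whether the 3 controls were separate cultures. The p-values therefore measure the spread between these arrays alone, and that spread may be technical. The 18, 24 and 30 h arrays were treated as 3 replicates of an early group, a grouping that the study took from clustering these same arrays, and a change with time inside the group therefore counted as spread.

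α-LA is a sulphur-containing fatty acid that serves, attached to protein, as the cofactor of the mitochondrial pyruvate, 2-oxoglutarate, branched-chain and glycine cleavage enzymes. Free α-LA is taken up by cells, reduced to a dithiol and passes electrons to other thiols and metals. FaO cells keep many functions of differentiated hepatocytes, among them glucose output and the secretion of plasma proteins, while dividing as tumour cells.

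The hepatocyte label was checked against marker genes. Of 12 hepatocyte markers, 11 were on the array and 8 reached the signal minimum. No stellate cell marker (7 on the array) and no endothelial marker (6 on the array) reached it, and 1 of 7 macrophage markers and 1 of 5 cholangiocyte markers did. Signals were normalised to the same quantiles on every array (medians 132.7 to 132.8), and 8409 to 8422 probes per array were at 150 or more. Control 1 stood apart from the other controls in some genes: 33 probes were at least 2-fold lower on it than on the mean of controls 2 and 3, while 0 probes were at least 2-fold higher, and controls 2 and 3 had 0 in either direction. The number of arrays limits the precision of every value.

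Between the early α-LA arrays and controls, 2968 of 9193 tested probes (32.3%) differed, in both directions and mostly by less than 2-fold. With limma and Benjamini-Hochberg adjustment at 0.05, 1523 probes (16.6%) were higher and 1445 (15.7%) were lower in the early arrays than in controls. Of these, 1484 and 1405 had every early array beyond the range of the controls, as did 23.3% (above) and 21.5% (below) of all tested probes whether called or not. In pooled cells, fewer cells that express a gene and less of its RNA per cell cannot be told apart. Changes of at least 2-fold were fewer: 150 probes (1.63%) were higher and 268 (2.92%) lower, of which 135 and 240 had a gene symbol. The median log2 change over all tested probes was 0.01 with a median standard error of 0.11. Among 7271 genes, each read by its brightest probe, 17.9% were higher and 17.5% lower, and the gene groups below are set against these shares. The plot of log2 change against signal shows that falls of 2-fold or more outnumbered such rises.

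**Figure D1:**
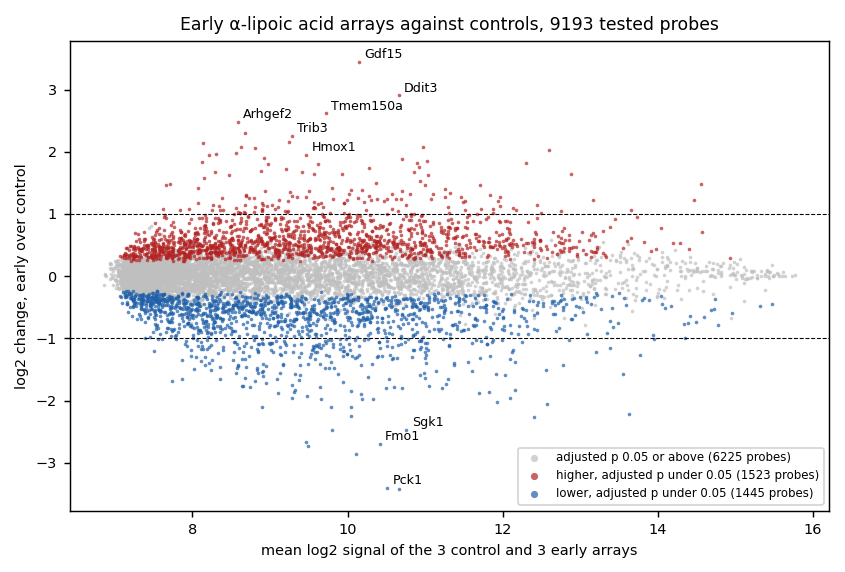
Log2 change of the early arrays over controls for each of the 9193 tested probes (y axis) against its mean log2 signal over the 6 arrays (x axis). Red points are the 1523 probes called higher and blue points the 1445 called lower at an adjusted p under 0.05 and dashed lines mark 2-fold.

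The leading rises joined a secreted stress hormone, regulators of transcription, a plasma protein precursor, a phosphate transporter and heme oxygenase. Leading rises and falls were picked among called genes with every early array beyond all controls. Their separation was thus fixed by the choice. Gdf15, a circulating hormone that many cells release under stress, gave signals of 288, 356 and 396 in controls 1 to 3 and of 3471, 3629 and 4132 at 18, 24 and 30 h. The groups lay far apart. Gdf15 was thus 10.9-fold higher (standard error 0.13 on the log2 scale, adjusted p = 7.4e-08). Ddit3, which encodes the stress transcription factor CHOP, rose from 505 to 680 in controls to 3407 at 18 h, 4938 at 24 h and 5164 at 30 h. Here the 18 h array was the lowest of the early arrays and the groups did not overlap. Arhgef2, an exchange factor for the small GTPase RhoA that binds microtubules, stood between 156 and 170 in controls, close to the signal minimum, and at 748, 917 and 1087 in the early arrays.

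Creb3l3, a liver transcription factor anchored in the endoplasmic reticulum, was at 178, 208 and 192 in controls and at 1239, 663 and 646 at 18, 24 and 30 h. The 18 h array was the highest by a wide margin, and all 3 early arrays were above the controls (4.21-fold, adjusted p = 3.4e-05). Ambp, the precursor of α1-microglobulin and bikunin, rose from 888 to 1133 in controls to 4410, 4187 and 3790, and was the only one of 8 tested hepatocyte markers called higher (log2 change 2.07, adjusted p = 7.9e-07). Slc20a1, a sodium-phosphate cotransporter, read 3171, 3081 and 2956 in controls and 10988, 13990 and 12655 in the early arrays. Its groups did not overlap. Hmox1, which breaks down heme, was 3.87-fold higher (386, 347 and 347 against 1196, 1631 and 1386, adjusted p = 1.4e-06).

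Other leading rises were Tmem150a, the renin-binding epimerase Renbp, the autophagy regulator Tecpr1, the actin-bundling plastin Lcp1 and the enolase Eno2, with log2 changes from 1.96 (Lcp1) to 2.62 (Tmem150a). Sult1c2al1 and Sult1c2, sulfotransferases of 1 family whose probes may read each other's transcripts, moved alike. Sult1c2al1 was below 150 in every control (129 to 138) and at 529, 721 and 542 in the early arrays, which gave a rise of at least 3.94-fold against the signal minimum. Casp4, an inflammatory caspase, reached 720, 1282 and 880 from 237 to 270 in controls. Hrk, a pro-death member of the BCL2 family, rose 3.10-fold to between 593 and 662. Of 208 genes named by rule in this comparison, 103 were higher, 97 lower and 8 not called.

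**Figure D2:**
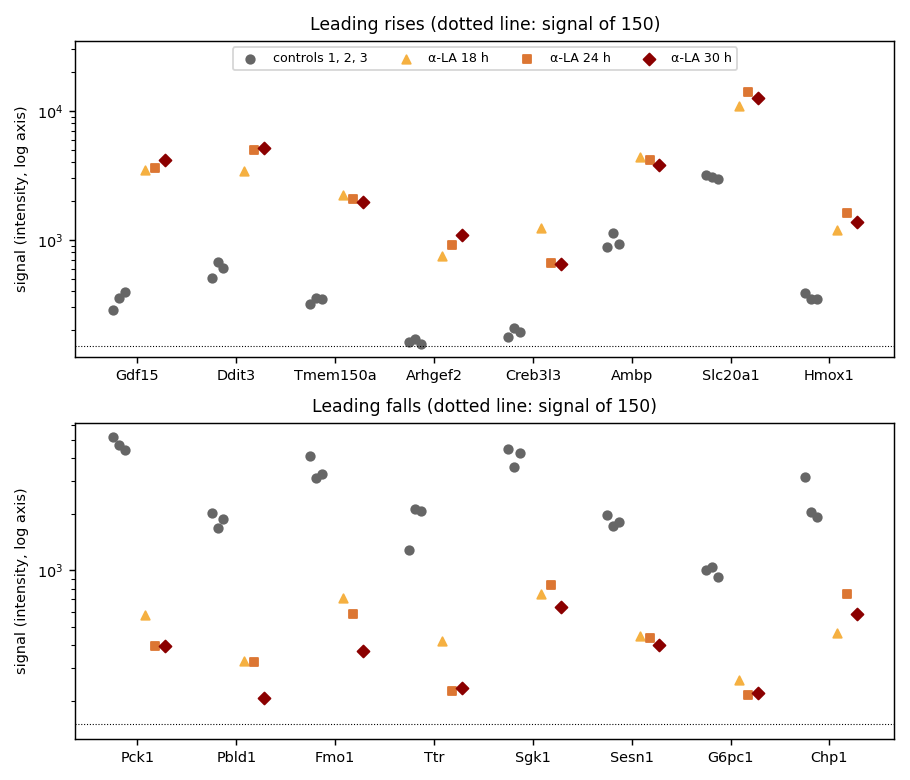
Signal on a log axis for 8 leading rises (top) and 8 leading falls (bottom), with 1 point per array, where grey circles are controls 1, 2 and 3, and the triangle, square and diamond are the arrays at 18, 24 and 30 h. In each of the 16 genes all early points lie on 1 side of all control points, which was a condition for their choice. Pck1 falls from 4430 or more to 577 or less.

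The leading falls included many enzymes and a carrier protein of differentiated liver. Pck1, the rate-limiting enzyme of gluconeogenesis, gave 5152, 4706 and 4430 in controls and 577, 395 and 396 at 18, 24 and 30 h. It was 10.6-fold lower (adjusted p = 1.8e-07), and its 18 h array was the highest of the 3 early ones. Ttr, the plasma carrier of thyroxine, was at 1284, 2131 and 2078 in controls and at 417, 227 and 235 in the early arrays. Control 1 was the lowest control here, yet remained above every early array (6.35-fold lower, adjusted p = 2.2e-05).

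Fmo1, a flavin monooxygenase of drug metabolism, fell 6.49-fold, from 3112 to 4114 in controls to 710, 585 and 371. The 30 h array was the lowest. Sgk1, a kinase induced by serum and glucocorticoids, fell 5.54-fold (4464, 3592 and 4237 in controls, 750, 837 and 638 in the early arrays, adjusted p = 2.2e-06). Sesn1, a sestrin and a known p53 target, fell 4.30-fold, to 448, 435 and 399 from 1732 or more. G6pc1, the catalytic subunit of glucose 6-phosphatase, fell 4.28-fold, to between 215 and 260 from between 922 and 1049. Pbld1, the carboxylesterase-like Cesl1, the signalling ligand Wnt4, the carbonic anhydrase Car2 and Chp1, a calcium-binding cofactor of sodium-proton exchangers, were also among the 15 largest falls, with log2 changes from -2.73 (Pbld1) to -1.98 (Chp1). The probe ILMN_1371599 is listed as Aldh1a4, an aldehyde dehydrogenase, in the supplementary table of the study, a symbol that the RefSeq table used here does not hold. It fell as far as Pck1, from 6730, 4231 and 5232 in controls to 710, 433 and 392.

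Many genes of liver-specific function were lower in the early arrays. Of 8 tested hepatocyte markers, 6 were lower and 1 higher, with a median log2 change of -0.77 against 0.01 over all genes tested. Albumin (Alb), the main plasma protein, changed by -0.79 on the log2 scale and Serpina1, α1-antitrypsin, by -1.09. Of 43 tested secreted plasma proteins, 17 were lower and 5 higher (median -0.23). Plg, the precursor of the clot-dissolving protease plasmin, C9 of the complement system and Fgb, a fibrinogen chain, fell by 1.52, 1.44 and 1.27 on the log2 scale. Besides Gdf15 and Ambp, the secreted proteins that rose were Igfbp1, an IGF-binding protein, Cfi and Hp, and 3 secreted proteins were called higher without control 1 and the 24 h array. Serpina6, the carrier of corticosteroids, stood at 4644, 3542 and 1505 for 18, 24 and 30 h against 6535 to 7176 in controls.

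In drug and xenobiotic metabolism 21 of 45 tested genes were lower and 6 higher (median -0.30). The falls covered a cytochrome P450 (Cyp2e1, -1.35), glucuronosyltransferases (Ugt2b35, -1.58, and Ugt2b15, -1.19) and the glutathione transferase Gstm1 (-1.57), and the Ugt2b genes are a family of close copies that probes may not separate. Gstp1, the glutathione transferase that is typical of liver tumours rather than of normal hepatocytes, went the other way (1.06), as did the aryl hydrocarbon receptor Ahr (0.93). Among 28 genes of the urea cycle and amino acid breakdown, 9 were lower and 5 higher. Qdpr, which regenerates tetrahydrobiopterin, fell by 0.95 on the log2 scale and Ahcy, which removes S-adenosylhomocysteine, by 1.22. Glucose output counted 15 tested genes, 8 of them lower and 3 higher (median -0.33), and 5 were lower without control 1, 4 without control 3 and 5 without the 30 h array.

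Liver transcription factors moved in both directions. Of 24 tested, 8 were higher (5 without control 3 or the 18 h array) and 6 lower (3 without control 3 or the 30 h array). Cebpb, which drives acute-phase and stress genes, rose from 2351 to 2683 in controls to 7135, 5632 and 5992 in the early arrays (2.43-fold, adjusted p = 9.9e-05). Nfil3, a repressor that follows the circadian rhythm, rose 3.50-fold. Onecut2 rose 2.42-fold while its relative Onecut1 fell (-0.61), and Gata6 changed by -0.64. Of 12 glucocorticoid-responsive genes, 3 were higher (Igfbp1, Klf9 and Fkbp5) and 3 lower (Pck1, Sgk1 and Tsc22d3). Beside the 17.9% of all genes higher and 17.5% lower, a list of 12 is too small to show a difference from all genes. Igfbp1 stood at 17322, 16112 and 8488 against 4716, 4217 and 3879 in controls, with the 30 h array lowest of the early group.

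Genes of DNA replication and mitosis were lower almost without exception. Replication begins when minichromosome maintenance (MCM) helicases, loaded on origins in G1 phase, are activated by the GINS complex, and mitosis depends on cyclin-dependent kinase 1, spindle motors and the kinetochore. Of 44 tested genes of S phase, 43 were lower and 0 higher (median log2 change -1.09), and of 46 tested genes of G2 phase and mitosis, 43 were lower and 0 higher (median -1.12), beside 17.5% of all genes called lower. The medians were already -1.29 and -1.33 at 18 h, and -1.07 and -1.12 at 30 h. At 6 h, on 1 array, they were -0.22 and -0.28. With control 1 and the 24 h array both left out, 40 and 42 genes were lower.

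Some of these genes hardly varied inside either group. Gins1, a subunit of the GINS complex, read 1056, 1061 and 1051 in controls and 285, 282 and 290 in the early arrays. Mcm3, an MCM subunit, read 1625, 1632 and 1537 against 398, 409 and 409. The groups were separated by 3.69-fold and 3.94-fold. Mitotic genes varied more. Ccna2, cyclin A2, read 2981, 2367 and 2367 against 522, 745 and 714, and Nuf2, a kinetochore subunit, 6655, 6371 and 6021 against 1476, 2050 and 1689, with the 18 h array lowest in both. Among the members not called lower were Dbf4 (-0.24), an activator of replication origins, Espl1 (-0.38), the protease separase, and Ccnb2 (-0.04) and Fzr1 (-0.04), a cyclin and an activator of the anaphase-promoting complex.

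Such genes are known to be regulated through short elements near the start. These are the E2F site in replication genes and the cell cycle homology region and CCAAT box in mitotic genes. The promoters shown belong to the largest falls among genes called lower whose window held every motif searched. That each holds a match was therefore fixed by the choice. Sequences are from RefSeq (GRCr8), run 5′ to 3′ from 250 bases before to 50 bases after the annotated gene start, and capitals mark every match on either strand of the motif searched. For the E2F site, spelled TTTNNCGC, Mcm3 (chr9:30733697-30733996, minus strand) had 2 matches and Gins1 (chr3:160184670-160184969, plus strand) had 2 that overlap each other. For the cell cycle homology region, spelled TTTGAA, and CCAAT, Spc25 (chr3:74396669-74396968, minus strand), a kinetochore subunit that fell by 1.62 on the log2 scale, and Kif22 (chr1:191080829-191081128, minus strand), a chromosome-binding kinesin that fell by 1.56, each had 1 match of TTTGAA and 2 of CCAAT.
Mcm3: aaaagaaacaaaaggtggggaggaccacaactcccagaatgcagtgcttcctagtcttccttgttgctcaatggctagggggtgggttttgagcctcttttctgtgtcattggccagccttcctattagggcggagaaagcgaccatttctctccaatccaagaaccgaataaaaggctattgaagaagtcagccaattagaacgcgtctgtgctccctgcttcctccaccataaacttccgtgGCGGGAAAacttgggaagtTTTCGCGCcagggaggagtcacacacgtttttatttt
Gins1: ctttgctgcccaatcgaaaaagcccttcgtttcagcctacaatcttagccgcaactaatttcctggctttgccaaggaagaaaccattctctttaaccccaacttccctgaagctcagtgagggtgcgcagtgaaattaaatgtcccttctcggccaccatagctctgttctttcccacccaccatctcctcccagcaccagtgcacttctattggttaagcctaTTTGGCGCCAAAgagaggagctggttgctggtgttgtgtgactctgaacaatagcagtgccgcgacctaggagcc
Spc25: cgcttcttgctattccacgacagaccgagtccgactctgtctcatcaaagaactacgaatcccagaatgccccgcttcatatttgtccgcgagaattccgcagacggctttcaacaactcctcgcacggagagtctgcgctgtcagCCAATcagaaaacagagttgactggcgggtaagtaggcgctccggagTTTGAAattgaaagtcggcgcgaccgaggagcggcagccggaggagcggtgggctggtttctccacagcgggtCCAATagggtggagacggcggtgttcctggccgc
Kif22: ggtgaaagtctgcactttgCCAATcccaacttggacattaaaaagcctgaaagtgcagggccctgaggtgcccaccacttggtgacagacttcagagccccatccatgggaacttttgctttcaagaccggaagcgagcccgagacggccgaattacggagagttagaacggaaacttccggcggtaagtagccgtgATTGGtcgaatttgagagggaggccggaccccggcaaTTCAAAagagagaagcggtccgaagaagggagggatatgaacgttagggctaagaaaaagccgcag

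An E2F match was present in 16 of the 34 S phase promoters in the table (47.1%), beside 9.25% of 6096 promoters of genes tested and 5.19% of all 27457 promoters. The 16 genes with a match had a median log2 change of -1.41 and the 18 without one -0.84, as a description with no test. A TTTGAA match was present in 28 of 39 promoters of the G2 and mitosis list (71.8%), beside 12.1% of genes tested and 18.1% of all promoters. CCAAT was present in 27 of 39 (69.2%), beside 39.4% and 37.7%. Here the medians with and without TTTGAA were -1.11 and -1.24. A match is a run of letters and says nothing of binding in these cells.

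Chromatin and repair genes that accompany DNA replication were lower as well. Of 23 tested genes of histones and chromatin assembly, 15 were lower and 0 higher (median -0.52). Hmgn2, a nucleosome-binding protein, stood at 29637, 27029 and 25839, and read 5026, 7965 and 5104 in the early arrays (4.66-fold lower, adjusted p = 4.6e-06). Hmgb2, a DNA-bending protein, fell 3.91-fold, and Pclaf, a partner of the sliding clamp PCNA, fell 4.29-fold. Of 27 DNA repair genes, 18 were lower and 1 higher (0 higher without control 1, control 2, the 18 h or the 30 h array, median -0.56), including Fancd2 (-1.48) and the exonuclease Exo1 (-1.19). Regulators of G1 phase did not follow this pattern. Of 20 tested, 3 were higher and 4 lower, near the 17.9% and 17.5% of all genes. Mycn (-0.94) and the pocket protein Rbl2 (-1.33) were lower and E2f5 (0.93) higher.

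Myc and many genes that build ribosomes were higher in the same arrays in which replication genes were lower. Ribosome biogenesis, the assembly of ribosomal RNA and proteins in the nucleolus, is known to be promoted by the transcription factor MYC. Myc itself read 1447, 1074 and 1213 in controls and 3287, 3497 and 3455 in the early arrays, with narrow early values and no overlap (2.76-fold higher, adjusted p = 8.6e-06). Of 42 tested ribosome biogenesis genes, 18 were higher and 2 lower (Nhp2 and Fbl), with a median log2 change of 0.28. The 18 became 13 without control 2 and 14 without control 3 or the 30 h array. The 2 became 0 without control 2 or control 3 and 1 without any 1 early array. Utp4, a factor of the small subunit processome, rose from 1375, 1393 and 1434 to 3337, 3008 and 3635. Polr1b, a subunit of RNA polymerase I, rose from 2931 to 3370 in controls to 5806, 4950 and 6796, and Nop56, a core protein of methylation-guide particles, from 1958 to 2505 to 3193, 5038 and 4464.

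These rises were smaller or gone in the late arrays, in a contrast that shares the early arrays with the one above. Late against early, Myc changed by -1.18 on the log2 scale (adjusted p = 0.00086), Polr1b by -0.81 and Nop56 by -0.85, and 19 of the 42 genes were lower late than early with 0 higher, beside 8.2% of all 7271 genes lower and 6.96% higher. Over all genes the late arrays differed from the early ones in far fewer probes than the early arrays from controls (591 or 6.43% higher, 665 or 7.23% lower). Translation factors moved in the same direction. Of 36 tested, 13 were higher early and 0 lower, led by Eif2b3 (1.74), a subunit of the exchange factor that recycles eIF2, and Eif1a (1.02), a start-site factor, and 5 were lower late than early. The 13 became 8 without control 2 or control 3. Of the cytosolic ribosomal proteins, 5 of 62 were higher (8.06%, below the 17.9% of all genes) and 0 lower. With the 24 h array left out 9 were higher, and with control 3 or the 30 h array left out 3 were.

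**Figure D3:**
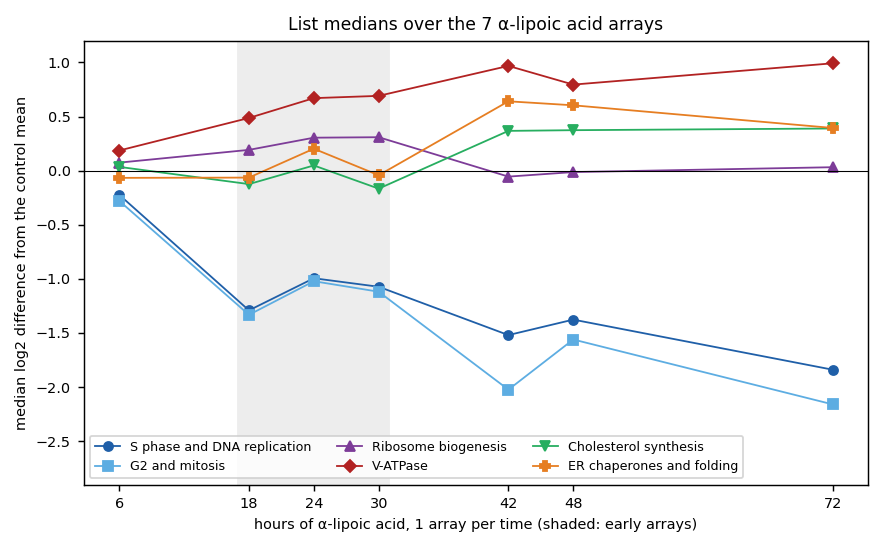
Median log2 difference from the control mean over the members of 6 gene lists (y axis) for each α-LA array by hours of treatment (x axis), 1 array per time, with the early arrays shaded. S phase and mitosis medians lie between -0.99 and -1.33 in the early arrays, ribosome biogenesis is at 0.19 to 0.31 in the early arrays and near 0 in the late arrays, and ER chaperones and cholesterol synthesis lie higher in the late arrays.

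Many genes of the lysosome were higher in the early arrays. The vacuolar ATPase pumps protons into lysosomes, and 11 of its 14 tested subunits and accessory proteins were higher with 0 lower, at a median log2 change of 0.62 (0.49 at 18 h, 0.67 at 24 h and 0.69 at 30 h). Atp6v1c1, a subunit of the cytosolic sector, read 1899, 1568 and 1671 in controls and 3235, 4210 and 3728 in the early arrays (2.17-fold, adjusted p = 3.4e-05). Atp6v0a1, Atp6v0d1 and Atp6v0e1 of the membrane sector were not called (0.07 to 0.19). Lysosomal enzymes, membrane proteins and autophagy genes numbered 42, and 19 were higher and 5 lower. Ctsl, the protease cathepsin L, rose 2.80-fold to 37158, 45701 and 38337. Sqstm1, the autophagy receptor p62, read 1240, 1184 and 798 in controls and 2642, 5553 and 3096 in the early arrays, with the 24 h array clearly highest. The 5 lower genes included Ulk1 (-0.72), the kinase that starts autophagy, and Wipi1 (-0.64), a protein of the forming autophagosome.

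In the integrated stress response, in which phosphorylation of eIF2 raises the translation of ATF4, 8 of 18 genes tested from PERK to ATF4 and CHOP were higher and 0 lower. Atf3, a transcription factor of the same branch, was at 136, 151 and 143 in controls, around the signal minimum, and at 276, 280 and 273 in the early arrays, which did not overlap (log2 change 0.94, adjusted p = 0.0081). Eif2ak3, the kinase PERK, was at 329, 277 and 326 in controls and 306, 275 and 298 in the early arrays and was not called. Of 18 aminoacyl-tRNA synthetases, which charge tRNAs and include known ATF4 targets, 9 were higher and 0 lower. Sars1 rose from 837, 666 and 711 to 1329, 1284 and 1452, and Wars1 (466, 465 and 512 in controls) rose to 637, 1138 and 976, lowest at 18 h. Leaving out control 3 reduced the 9 to 5.

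The ATF4 element, spelled TGATGNAA, was searched in the same promoter windows. The 2 genes shown were picked among those called higher because their window held a match, so its presence was fixed by the choice. Trib3 (chr3:161275484-161275783, minus strand) encodes a pseudokinase induced by CHOP and ATF4 and read 251, 301 and 306 in controls and 1279, 1334 and 1470 in the early arrays. Iars1 (chr17:15193603-15193902, minus strand) encodes isoleucyl-tRNA synthetase and read 755, 651 and 812 against 1189, 1254 and 1183. Each promoter held 1 match, on the reverse strand (from -21 to -14 in Trib3 and from -24 to -17 in Iars1, counted from the gene start).
Trib3: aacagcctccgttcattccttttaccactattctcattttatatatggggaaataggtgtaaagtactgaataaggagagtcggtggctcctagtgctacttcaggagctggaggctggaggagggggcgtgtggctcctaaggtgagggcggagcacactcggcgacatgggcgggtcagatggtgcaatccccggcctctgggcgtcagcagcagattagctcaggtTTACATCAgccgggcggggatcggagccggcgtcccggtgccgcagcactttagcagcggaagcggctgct
Iars1: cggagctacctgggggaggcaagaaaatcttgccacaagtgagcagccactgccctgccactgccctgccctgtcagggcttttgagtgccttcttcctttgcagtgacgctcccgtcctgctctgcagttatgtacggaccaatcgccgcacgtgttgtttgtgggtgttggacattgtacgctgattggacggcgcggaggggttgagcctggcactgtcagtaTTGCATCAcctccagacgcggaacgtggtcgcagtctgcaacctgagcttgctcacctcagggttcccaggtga

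The element was present in 6 of 15 promoters found for these 18 genes (40.0%) and in 7 of 15 of the synthetases (46.7%), beside 2.17% of genes tested and 3.82% of all promoters. In the branch, 1 of the 6 genes with a match was higher and 6 of the 9 without.

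Of 15 tested chaperones of the endoplasmic reticulum, 2 were higher (13.3%, near the 17.9% of all genes) and 1 lower (6.67%, beside 17.5%). The counts were 4 and 2 with only control and early arrays and 5 and 1 with array weights. They were 2 and 2 without the 24 h array, and 1 and 2 when control 1 was left out too. Hspa5 (BiP), Hsp90b1 (GRP94) and Canx were not called, with log2 changes of 0.51, 0.21 and 0.45. The study reports raised Hspa5 RNA on its arrays and by RT-PCR. Dnajb9, a BiP cochaperone, rose from 257 to 270 in controls to 460, 599 and 529 (2.01-fold, adjusted p = 0.011). Late against early, 8 of the 15 were higher and 0 lower, Dnajb9 by a further 1.43 on the log2 scale. Disulfide isomerases differed between single arrays, with medians of -0.23 at 18 h, 0.37 at 24 h and -0.05 at 30 h, and 1 of 10 was called, a call lost without control 2, control 3, the 24 h or the 30 h array. Pdia3 read 1072, 2493 and 1524 in the early arrays around control values of 1549 to 1845. In cytosolic heat shock, 6 of 19 were higher and 1 lower. Control 1 was above the other controls over that list, by a median of 0.24, and without it 8 were higher and 0 lower (median 0.24 against 0.12 with it).

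Genes of the NRF2 response, the main defence against thiol-reactive compounds, went both ways, and 11 of 38 were higher and 12 lower (median -0.09). The higher members were led by Hmox1, Sqstm1, the efflux pump Abcc2 (1.42), ferritin light chain Ftl1 (0.96) and Gclc (0.93), the catalytic subunit of the first enzyme of glutathione synthesis. Gclc read 4531, 3891 and 3706 in controls and 7694, 7491 and 7844 in the early arrays, tightly grouped. The lower members included liver detoxification enzymes. Gstm1 read 22449, 20309 and 19579 in controls and 6773, 8507 and 5923 in the early arrays, and Akr7a3, Gstm2, Aldh1a1 and Gsta2 changed by -1.11 to -0.92. Nqo1 (-0.55) and Gclm (-0.06) were not called, and Nfe2l2, which encodes NRF2 itself, was lower (-0.42). At 6 h, on 1 array, the list median was 0.39, higher than on any early array (-0.24, 0.01 and -0.20).

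Iron and selenium genes also went both ways. With heme oxygenase and ferritin light chain higher, 8 of 25 heme and iron genes were lower, among them Slc40a1, the iron exporter ferroportin, which fell from 3038, 2639 and 2656 to 1199, 1366 and 1486, and Fech (-0.79), which inserts iron into heme. The list median was -0.21 at 18 h, -0.22 at 24 h and -0.21 at 30 h. Of 19 selenoprotein genes, 5 were higher (2 without control 2, and 3 without control 3, the 18 h or the 30 h array) and 6 lower, with Dio1, the deiodinase of liver, changed by -1.23, and Selenos, a protein of the endoplasmic reticulum membrane, by 0.68. Of 21 genes of glutathione and thioredoxin, 6 were higher (3 without any 1 control or without the 30 h array) and 5 lower, the latter including mitochondrial thioredoxin Txn2 (-0.57), whose early signals were 306, 338 and 317 against 471, 478 and 475. Its partner, the mitochondrial reductase Txnrd2, changed by -0.54 while the cytosolic Txnrd1 changed by 0.41.

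Genes of mitochondrial oxidation were lower in part. Of the 19 tested genes of enzymes that carry or attach lipoate and of their regulators, 8 were lower and 3 higher (median -0.23). Ogdh, the first component of the 2-oxoglutarate complex, read 2581, 2843 and 2604 in controls and 1646, 1542 and 1550 in the early arrays, and Pdhb of the pyruvate complex 2073, 1952 and 2080 against 1136, 1234 and 902. Lias, the enzyme that makes lipoate on the protein, went up from 385, 363 and 342 to 650, 854 and 620 (1.93-fold, adjusted p = 0.00014). None of these groups overlapped. Of 18 citrate cycle genes 9 were lower and 1 higher (0 without control 2, control 3 or the 30 h array), and of 27 genes of fatty acid oxidation 11 were lower and 3 higher, with Acadvl (-1.07) and Acadm (-0.91), dehydrogenases of long and medium chains, among the lower. The higher lipoate genes were 1 without control 2, control 3, the 18 h or the 24 h array. The lower lipoate genes were 4 without control 1, control 3 or the 18 h array and 5 without control 2 or the 30 h array. The lower citrate cycle genes were 5 without control 1 or the 18 h array and 4 without control 3 or the 30 h array, and the lower fatty acid oxidation genes were 7 without control 1, control 2 or the 30 h array.

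The count for the respiratory chain depended on control 1. Of 55 tested subunits of oxidative phosphorylation, 12 were lower and 0 higher (median -0.33), and 33 were lower without control 1, and 31 without control 1 and the 24 h array, a pair left out together after these values were seen. Over the 55 genes control 1 differed from controls 2 and 3 by a median of -0.44 on the log2 scale, and against controls 2 and 3 the medians were -0.36 at 18 h, -0.65 at 24 h and -0.37 at 30 h. Ndufa12, a complex I subunit, shows the pattern, at 6180, 11549 and 10381 in controls and 5418, 4372 and 5448 in the early arrays. Atp5f1a, the ATP synthase α subunit, does not, at 32436, 24465 and 25111 against 16112, 21644 and 15274. What set control 1 and the 24 h array apart was not tested. Mitochondrial ribosomal proteins showed the same arrays apart (control 1 at -0.29, 24 h at -0.32), with 15 of 58 lower and 4 higher, 18 and 5 without both arrays, 9 and 2 without either control 2 or control 3, and 7 higher without the 24 h array. Among mitochondrial chaperones and proteases 4 of 23 were higher (17.4%, near the 17.9% of all genes) and 0 lower. The largest rise was that of the protease Lonp1, from 962 to 1100 in controls to 2462, 5289 and 3535.

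**Figure D4:**
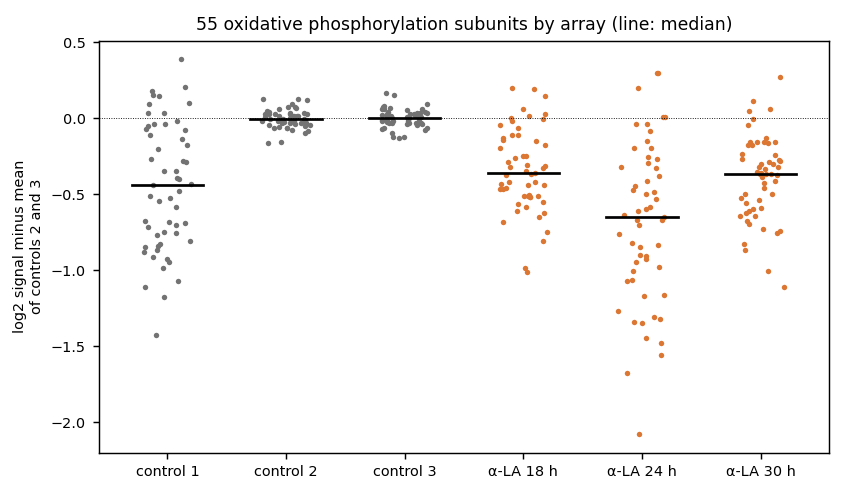
Log2 signal minus the mean of controls 2 and 3 (y axis) for each of 55 oxidative phosphorylation subunits on the 3 control and 3 early arrays (x axis), with black lines at the medians. Control 1 has a median of -0.44, and the 18, 24 and 30 h arrays have medians of -0.36, -0.65 and -0.37, so control 1 overlaps the early arrays.

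In cholesterol synthesis and glycolysis a few genes changed by a large factor. Hmgcs1, an enzyme of the path to mevalonate, read 11101, 9549 and 9938 in controls and 3376, 3798 and 3565 in the early arrays (2.85-fold lower, adjusted p = 5e-06), and Stard4, a cholesterol carrier, and Ebp, a sterol isomerase, changed by -1.28 and -1.17. In all, 6 of 24 cholesterol genes were lower and 2 higher early (4 higher without the 18 h array and 1 without control 2, control 3, the 24 h or the 30 h array), and 15 were higher late than early. In glycolysis 3 of 11 genes were higher and 2 lower (median -0.13), with 1 lower without control 1, control 2 or the 18 h array. Aldoa, the aldolase of muscle and most tissues, rose from 2203 to 3002 in controls to 4728, 8373 and 5361 and Ldhb, the lactate dehydrogenase B subunit, from 2915 to 3267 to 6547, 7460 and 5767, while Pklr, the liver pyruvate kinase, fell (-0.50).

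Smaller lists held a few large changes each. In the circadian clock 3 of 11 genes were higher and 0 lower, namely the repressors Cry1 (842 to 888 in controls, 2060, 1896 and 2211 early), Bhlhe40 (387 to 481, then 1238, 1500 and 1318) and Nfil3. All Cry1 and Bhlhe40 values were separated by group, and both genes were lower late than early (-0.85 and -0.69). Of 22 immediate early transcription factors 9 were higher and 1 lower, with Myc, the small MAF protein Mafk (1.31) and Klf6 (0.96) leading, and Klf10 (-0.74) the one that fell. In nucleotide synthesis 8 of 22 were higher and 3 lower, with Ctps1 (0.97), CTP synthase, and Gmps (0.64), GMP synthase, higher and Dctpp1 (-1.37), a dCTP pyrophosphatase, lower.

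Of 16 p53 targets 2 were higher and 5 lower, with Sesn1 and Aen (1.24), an apoptosis-enhancing nuclease, at the extremes. Of 32 regulators of cell death 6 were higher and 8 lower, beside 17.9% of all genes higher and 17.5% lower. The share of death regulators called higher (18.75%) was thus near that of all genes. The higher p53 targets were 1 without control 3 and the lower ones 3 without control 2, the 18 h or the 30 h array, and the lower death regulators 5 without control 1, control 3 or the 30 h array. The higher death regulators were Casp4, Hrk, Bid, Bnip1, Mcl1 and Bcl2l2, a mixture of pro-death and pro-survival members, and the lower ones included Fadd (-0.61) and Casp9 (-0.54). Splicing factors were lower in 15 of 41 and higher in 3 (median -0.20). The 15 became 10 without control 1, the 18 h or the 30 h array and 11 without control 3. In the proteasome 3 of 39 were higher and 3 lower (6 lower without control 1 and 1 without control 2). In the cytoskeleton 13 of 39 were lower and 8 higher. S100a6, a calcium-binding protein, read 654, 1273 and 1354 in controls and 3443, 1278 and 4365 in the early arrays. Its 24 h array lay inside the control range, and its call (adjusted p = 0.022) was lost without control 1 (adjusted p = 0.0807).

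**Figure D5:**
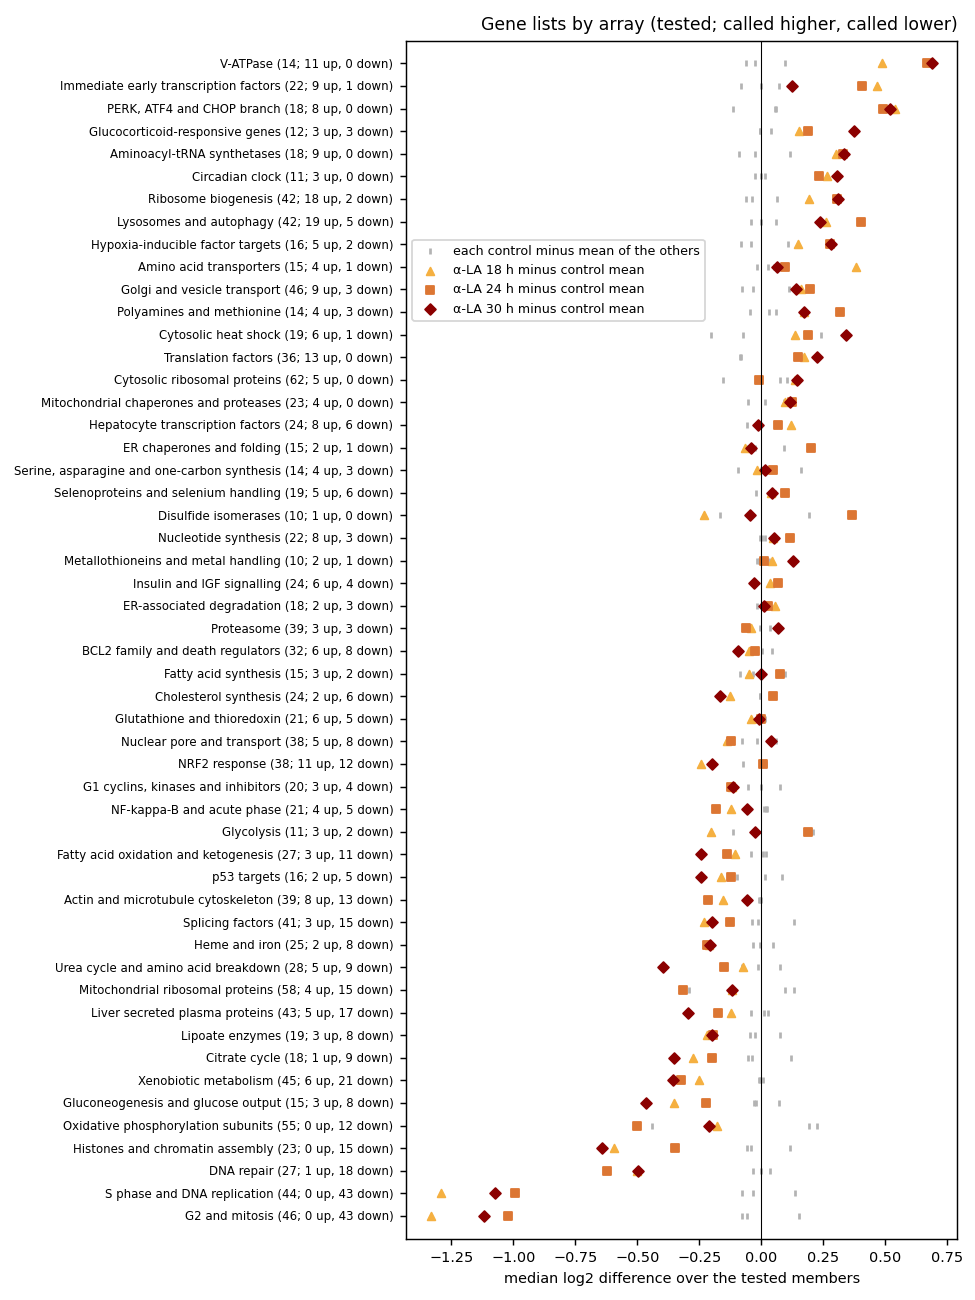
Median log2 difference over the tested members of each gene list (x axis) for the 18, 24 and 30 h arrays against the control mean, with grey ticks for each control against the mean of the others. Labels give the genes tested and those called higher and lower, and the S phase and G2 lists lie far left (43 of 44 and 43 of 46 lower) while V-ATPase lies furthest right at 24 and 30 h (11 of 14 higher) and the PERK, ATF4 and CHOP branch at 18 h.

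The 3 times of the early group had similar numbers of probes far from the controls. At 18 h 167 probes lay 2-fold or more above the control mean and 261 lay that far below it, with 181 and 279 at 24 h and 180 and 328 at 30 h, with 1 array per time and no test between times. Over all tested probes, 4 were at least 2-fold higher at 30 h than at 18 h and 9 at least 2-fold lower. Among the 418 probes called at least 2-fold these numbers were 0 and 5, in a set where change between the times had counted as spread and so worked against a call. The 5 included Serpina6 (3.09-fold), Amacr (2.25-fold), a racemase of branched-chain lipid breakdown, Plg (2.07-fold) and Igfbp1 (2.04-fold), a choice made from these values. Hepatocyte markers had medians of -0.61, -0.67 and -1.06 at 18, 24 and 30 h. Of the 418 probes, 147 differed between the late and the early arrays. Of the rises, 17 were higher still and 34 lower late than early, and of the falls, 75 were lower still and 21 higher. Over all tested probes, 6.43% were higher and 7.23% lower late than early. The 418 probes were picked on the same early arrays that this contrast uses, which makes smaller late changes more likely.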

How the data were processed

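Total RNA of FaO cells was measured on Illumina RatRef-12 bead arrays. The deposited intensity values were quantile-normalized across the 12 arrays by the authors, after BeadStudio 3.0.19.0, on a linear scale, and whether background was subtracted was not given in the sources used here. Quantile normalisation forces equal distributions, so a shift of all transcripts in 1 direction cannot be seen, and background left in the signals makes changes of dim probes smaller. Signals were taken to log2 and fitted by lmFit and eBayes of limma (version 3.58.1, R version 4.3.3) over the control, early and late arrays as 3 groups (6 residual degrees of freedom), with Benjamini-Hochberg adjustment over 9193 probes at 0.05. The fit was tested on simulated data. Late arrays entered only to share the estimate of spread and for the late against early contrast.

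Of 22523 probes, 13793 were named through the platform annotation and RefSeq (GRCr8) and 763 from gene symbols in a supplementary table, used for names only, and 7967 stayed unnamed. The probe of highest mean signal stood for a gene. Named genes were the 15 largest rises and falls with every early array beyond the controls, up to 4 members of each list with the largest called change, and genes the study names for these arrays. Genes picked otherwise are named with their values as list members. Members and lists were chosen with earlier results of these data known. Where a group was under 150 on every array, folds are bounds against 150. A second deposited table, 24 columns of signals before normalisation and detection p-values, matched no array by name and was not used. Alternatives were filters, normexp, a pseudocount, array weights, other eBayes settings, other groups in the fit and leaving out each array. Promoter motifs were counted on both strands. Some genes that the rule named are not reported here.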

Additional observations from a re-analysis of the deposited data

Results flagged for a closer look

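Of the 30 genes with the largest early changes, 7 differed between the late (42, 48 and 72 h) and the early arrays by the limma test of that difference. Over all 7271 genes, 6.96% were higher and 8.2% lower late than early. The 30 genes were picked on the same early arrays that this contrast uses, which makes smaller late changes more likely. Late minus early on the log2 scale, Ambp was at -0.69, Slc20a1 at -0.76 and Lcp1 at -0.51, so these rises were smaller late. Wnt4 was at -0.47 and Hmgn2 at -0.57, so these falls were larger late. Sesn1 was at 0.36 and Chp1 at 0.66, so these falls were smaller late.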

How the results depend on the processing

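With each control or early array left out, the probes called higher ranged from 1116 to 1505 and those called lower from 1124 to 1407, and those changed at least 2-fold from 149 to 165 and from 254 to 278. Without control 1 and the 24 h array the counts were 1378 and 1321. All other alternatives kept these counts within 1.5 times. The count of probes higher late than early was 377 without the 30 h array against 591 (range 377 to 590, and 482 to 668 for lower). Of 103 named genes called higher, 12 lost the call under some alternative, as did 6 of 97 called lower, and 0 reversed. Of 52 list medians, 13 changed sign under some alternative, 9 of them by values within the spread between the early arrays on at least 1 side of 0 (glycolysis from -0.13 to at most 0.12, disulfide isomerases from 0.05 to at least -0.10, glucocorticoid-responsive genes from 0.30 to -0.04, death regulators from 0.0035 to at least -0.09, and cholesterol synthesis, ER-associated degradation, fatty acid synthesis, insulin signalling and proteasome, each under 0.04 in size before the change). The other 4 were p53 targets (-0.18, but 0.20 with a median signal above 300 and 0.15 with a signal of 150 or more on all arrays), serine, asparagine and one-carbon synthesis (0.07, but -0.17 under both), G1 regulators (-0.10, but 0.070 with 150 or more on all arrays) and glutathione and thioredoxin (-0.06, with a range from -0.11 to 0.035 when arrays were left out, 0.035 without control 1 and the 24 h array). The cause was not tested. No paired analysis was possible because the labels give the α-LA arrays no replicate number shared with the controls.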
